A study of Mus musculus with 12 samples.

Results

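A set of 10 genes tied to inherited small vessel disease of the brain, or coding for proteins found in the vessel deposits of CADASIL, were followed in mouse brain vessels that lacked Notch3. They were Htra1, Timp3, Vtn, Clu, Foxf2, Foxc1, Trex1, Cst3, App and Ctsa, chosen by gene symbol, and 9 of the 10 could be measured among the 11716 genes tested. A gene was measured where the array held a probe set annotated to it alone, and the brightest such probe set stood for it. Trex1 was covered only by a probe set shared with Atrip. Vessel fragments of the cerebellum and of the cerebrum came from 3 Notch3 knockout mice and 3 littermate controls, labelled wildtype, all C57BL/6 and 2 months old. This gave 4 groups of 3 arrays: knockout cerebellar, control cerebellar, knockout cerebral and control cerebral. The sources used here do not say how the knockout line was made, in which cells the gene was removed or how fragments were isolated. The measured RNA is that of whole fragments, so fewer cells of a type and less RNA per cell cannot be told apart.

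Mural cells, that is the pericytes and smooth muscle cells of small vessels, carry the receptor NOTCH3, and variants of the human gene cause CADASIL. In that disease the outer part of the receptor gathers around mural cells, and other secreted proteins gather with it. A knockout lacks the receptor, whereas CADASIL variants alter a receptor that is still made, and the arrays measured RNA and no protein. The genes fall into 4 roles. HTRA1, a secreted serine protease whose loss causes the recessive disease CARASIL, TIMP3, an inhibitor of metalloproteinases bound to the matrix, vitronectin (VTN), an adhesive protein that binds integrins, and clusterin (CLU), an extracellular chaperone, have been found in human deposits or vessel walls. Cystatin C (CST3), an inhibitor of cysteine proteases, and the amyloid precursor protein (APP) form vessel amyloid in hereditary angiopathies, and cathepsin A (CTSA), a lysosomal carboxypeptidase, causes CARASAL when altered. FOXF2 and FOXC1 are forkhead transcription factors of mural and neural crest cells, linked in humans to stroke and to white matter disease. TREX1 is a DNA exonuclease whose truncation causes a retinal and cerebral vasculopathy.

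The start regions of the genes on which the results turn are printed first, from 250 bases before to 30 bases after the transcription start listed by RefSeq (mouse GRCm38.p6). Capitals mark a short motif found by search on both strands. In Ctsa and Ctsd, a lysosomal protease printed beside it because both were higher in knockout cerebral vessels, the motif is CACGTG, the core that factors of the TFEB family read before many lysosomal genes. In Foxc1 and Vtn it is TGGGAA, which Foxf2, shown beside its neighbour Foxc1, does not hold. TGGGAA is the core read by RBPJ, the DNA-binding partner of Notch receptors. It is printed as its reverse complement, TTCCCA, where it lies on the other strand.
Ctsa, chr2:164833523-164833802, plus strand: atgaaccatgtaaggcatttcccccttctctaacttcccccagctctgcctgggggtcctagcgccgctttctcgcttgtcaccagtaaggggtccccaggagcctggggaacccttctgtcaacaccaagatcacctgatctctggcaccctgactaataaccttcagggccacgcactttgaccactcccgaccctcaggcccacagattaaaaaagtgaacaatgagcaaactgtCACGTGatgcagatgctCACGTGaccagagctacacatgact
Ctsd, chr7:142387798-142388077, minus strand: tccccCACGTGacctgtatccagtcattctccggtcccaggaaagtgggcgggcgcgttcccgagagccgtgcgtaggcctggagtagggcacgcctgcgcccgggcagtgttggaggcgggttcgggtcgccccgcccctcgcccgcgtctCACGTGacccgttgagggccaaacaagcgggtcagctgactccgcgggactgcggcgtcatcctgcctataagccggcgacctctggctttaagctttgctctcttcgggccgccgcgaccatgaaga
Foxc1, chr13:31806396-31806675, plus strand: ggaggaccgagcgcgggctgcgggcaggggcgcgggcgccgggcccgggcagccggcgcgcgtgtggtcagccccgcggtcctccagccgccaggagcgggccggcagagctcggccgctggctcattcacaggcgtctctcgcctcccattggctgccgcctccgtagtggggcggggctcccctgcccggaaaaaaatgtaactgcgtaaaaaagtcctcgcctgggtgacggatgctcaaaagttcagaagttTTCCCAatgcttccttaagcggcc
Foxf2, chr13:31625566-31625845, plus strand: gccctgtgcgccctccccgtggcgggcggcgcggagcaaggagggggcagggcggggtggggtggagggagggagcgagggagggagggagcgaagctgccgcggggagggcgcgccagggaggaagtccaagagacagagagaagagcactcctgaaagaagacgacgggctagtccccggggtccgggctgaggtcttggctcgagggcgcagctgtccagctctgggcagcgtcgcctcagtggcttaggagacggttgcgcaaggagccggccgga
Vtn, chr11:78498870-78499149, plus strand: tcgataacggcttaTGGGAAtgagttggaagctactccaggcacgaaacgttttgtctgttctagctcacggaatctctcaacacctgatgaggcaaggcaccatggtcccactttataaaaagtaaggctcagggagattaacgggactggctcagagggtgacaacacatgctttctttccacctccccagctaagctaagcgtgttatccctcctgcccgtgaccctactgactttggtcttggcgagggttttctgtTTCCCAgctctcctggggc

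Ctsa held CACGTG at positions -12 and 6, the start being position 1, and both copies lay inside the longer palindrome TCACGTGA, which overlaps the shorter motif. CACGTG occurred in 6.79% and TCACGTGA in 0.93% of the 32851 start windows of the same length in the table. Ctsa is printed from its second listed start, which holds both motifs. Its first listed start held neither, so the printed window was a choice among starts. Foxc1, Cst3 and App held 1 TGGGAA each and Vtn held 2. Foxf2, Ctsa, Htra1, Timp3 and Trex1 held none, and the motif occurred in 23.76% of all windows. Foxf2 and Foxc1 are neighbours on chromosome 13, with only a small nuclear and a small nucleolar RNA gene listed between them. None of the 10 genes lies on chromosome 17, which carries Notch3. The table listed 9 of the 10 genes and did not list Clu. A match of letters describes the window and is not evidence of binding.

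Each array gave log2 expression values. Array medians lay between 3.24 and 3.30, and within groups r between arrays was 0.991 to 0.996 across tested genes. Notch3 read 2.48 to 3.58 on knockout arrays and 10.84 to 12.02 on control arrays, so the arrays matched their labels. Of 8 endothelial markers 7 were tested, of 8 pericyte markers 7 and of 8 smooth muscle markers all 8. RNA of other brain cells was present too. Over all arrays the summed log2 level of 7 choroid plexus markers ran from 16.20 to 16.66. That of 8 microglia markers ran from 15.57 to 16.88, and that of the 7 endothelial markers from 16.59 to 16.86. Of 8 neuronal markers 5 passed the intensity filter, Tubb3, Slc17a7 and Nefl not among them, with summed levels from 10.12 to 10.62 on knockout and from 10.29 to 10.83 on control arrays. Of 6 oligodendrocyte markers 3 passed, Mog and Mag not among them, with summed levels from 12.80 to 14.27 on knockout and from 12.62 to 13.68 on control arrays. Each genotype had 2 mice with Xist and 1 without. A gene is said below to be called, to rise or to fall where its adjusted p from limma, with Benjamini-Hochberg adjustment over all 11716 genes, was under 0.05.

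Most of these genes did not pass the test for an effect of the knockout. In cerebellar vessels 1 of 9 was called, Foxc1, which fell, against 4.22% of all tested genes called (3.17% lower and 1.06% higher). In cerebral vessels 1 of 9 was called, Ctsa, which rose, against 6.38% of all genes (2.45% higher and 3.93% lower). A count of 1 of 9 is close to these shares and is no result about the genes as a set. The median absolute log2 change of the 9 was 0.08 in cerebellar vessels, against 0.10 over all genes, and 0.19 in cerebral vessels, against 0.11. Knockout and control values did not overlap for 3 of 9 genes in cerebellar vessels (22.1% of all genes) and for 5 of 9 in cerebral vessels (24.4% of all genes). When the regions of each mouse were averaged, 0 of 9 were called by limma (4.03% of all genes) and 3 had an unadjusted p under 0.05, namely Foxc1, Foxf2 and Ctsa. These 3 and Vtn were the 4 genes whose knockout and control mice did not overlap, against 26.3% of all genes.

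**Figure D1:**
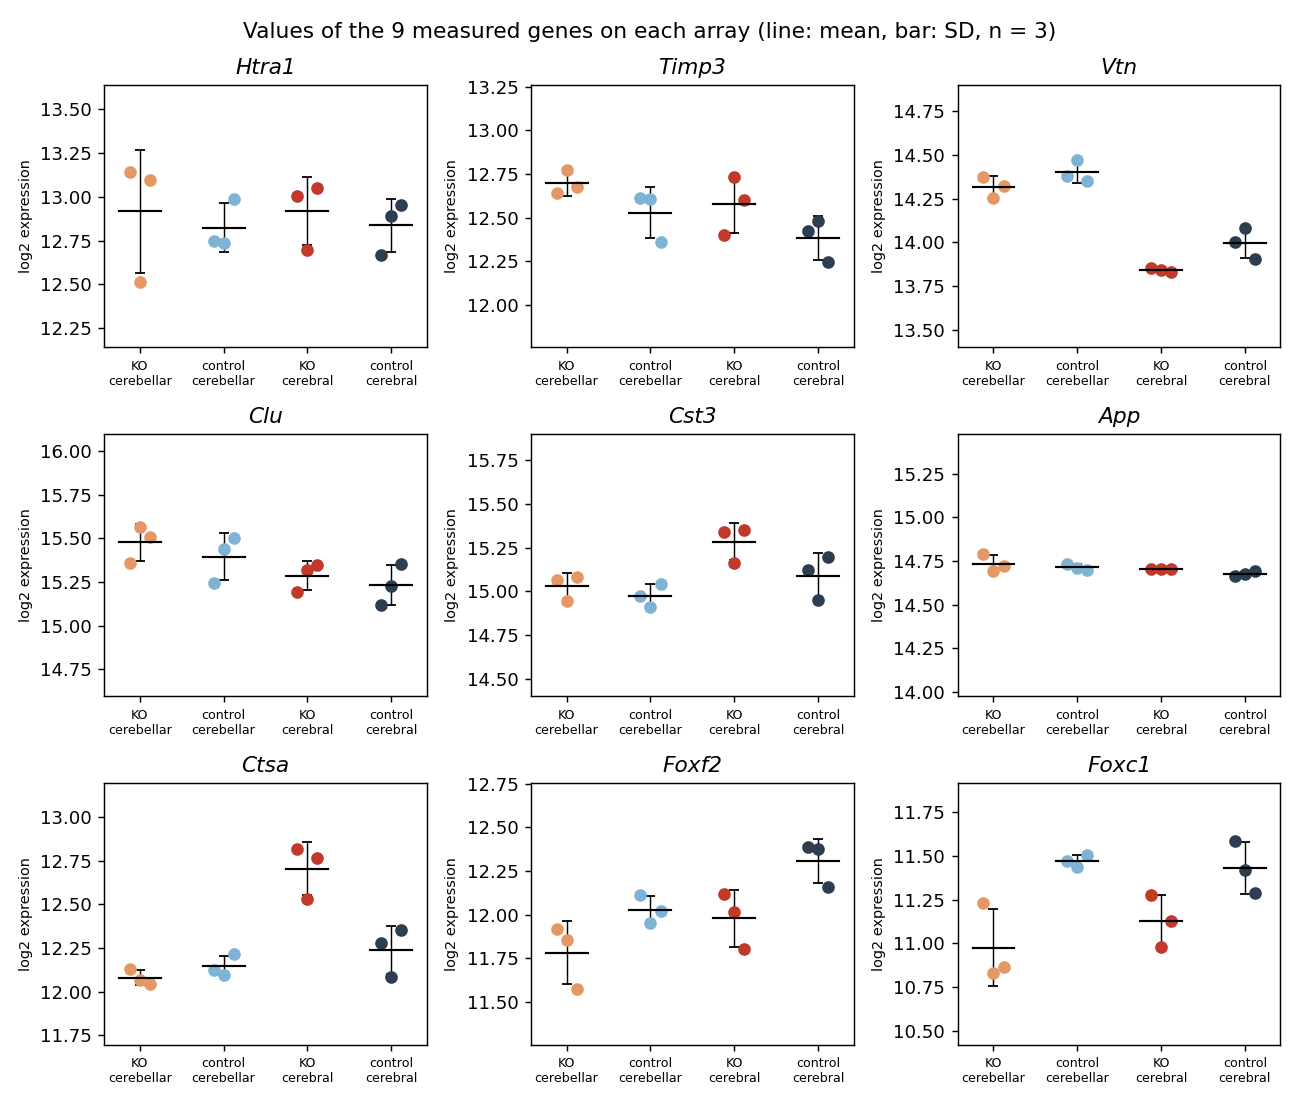
Log2 expression of the 9 measured genes on each of the 12 arrays, in 4 groups of 3 (points: arrays, horizontal line: mean, vertical bar: SD). Ctsa stands higher in knockout cerebral vessels than in the other 3 groups, Vtn is higher in cerebellar than in cerebral vessels, and Foxc1 and Foxf2 are lower in knockout than in control vessels of each region.

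**Figure D2:**
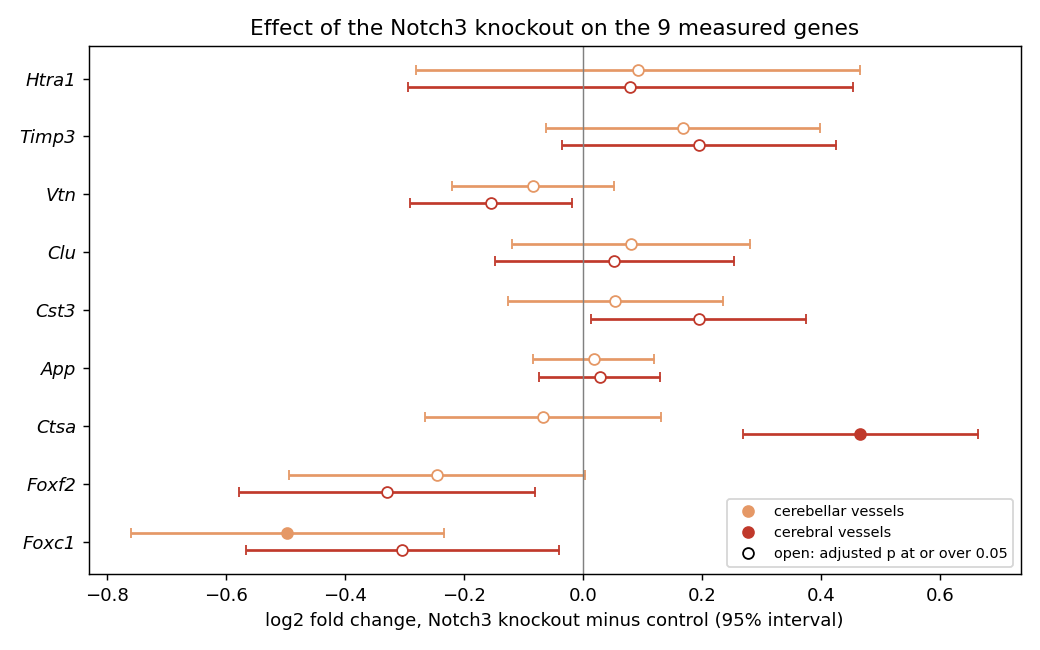
Log2 fold change of the 9 genes, knockout minus control, in cerebellar and in cerebral vessels, with 95% intervals from limma; filled points have an adjusted p under 0.05. Only Ctsa in cerebral vessels and Foxc1 in cerebellar vessels are filled, and the intervals of App are the narrowest.

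Ctsa, whose product cathepsin A also protects the sialidase and galactosidase of its lysosomal complex, rose in knockout cerebral vessels. Its values were 12.82, 12.53 and 12.76 in knockout cerebral vessels, against 12.28, 12.09 and 12.35 in control cerebral vessels. The lowest knockout array lay above the highest control array, and the difference was 0.47 log2 (SE 0.09, 95% interval 0.27 to 0.66, limma adjusted p = 0.0124), a 1.38-fold higher level. Ctsa in cerebellar vessels read 12.13, 12.07 and 12.04 in knockout mice, against 12.12, 12.10 and 12.21 in controls. These values overlapped, and the difference was -0.07 (SE 0.09, 95% interval -0.26 to 0.13, adjusted p = 0.788). The cerebral call held under 22 of 25 alternatives and was lost without knockout cerebral replicate 1 (0.41, adjusted p = 0.0507), without replicate 3 (0.44, adjusted p = 0.0525) and in a fit on the 6 cerebral arrays alone (adjusted p = 0.102). A second probe set of Ctsa read only 3.46 to 3.71 on all arrays, close to the filter, and differed by 0.05 in each region without being called.

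Cst3, the cystatin that inhibits cathepsins, read 15.34, 15.16 and 15.35 in knockout cerebral vessels and 15.12, 14.95 and 15.20 in control cerebral vessels. The groups overlapped, because the lowest knockout array lay below the highest control array, and the difference of 0.19 (SE 0.08, adjusted p = 0.207) was not called. In cerebellar vessels Cst3 averaged 15.03 ± 0.08 in knockout and 14.98 ± 0.06 in control mice (SD, n = 3 each), a difference of 0.05 (adjusted p = 0.814). App was the steadiest of the 9 genes. It averaged 14.73 ± 0.05 in knockout and 14.72 ± 0.02 in control cerebellar vessels, and in cerebral vessels 14.70, 14.71 and 14.70 in knockout mice against 14.67, 14.67 and 14.69 in controls. Its differences were 0.02 (95% interval -0.08 to 0.12) in cerebellar and 0.03 (95% interval -0.07 to 0.13) in cerebral vessels, and a second probe set gave 0.02 in cerebellar vessels and 0.00 in cerebral vessels. The cerebral arrays of App did not overlap, at a distance of about 0.01 log2.

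Other lysosomal genes were higher with Ctsa in knockout cerebral vessels. Of 14 tested partners and proteases of the lysosome, 6 rose, 0 fell and 8 were not called. Of all genes, 2.45% rose and 3.93% fell there. The list median was 0.25, against -0.01 over all genes. The list was chosen with earlier results of these data known, so it is not independent evidence about Ctsa. Hexa, a subunit of beta-hexosaminidase, rose by 0.51 (SE 0.11), Ctsd, the aspartic protease cathepsin D, by 0.51 (SE 0.10), and Ctsb, the cysteine protease cathepsin B, by 0.34 (SE 0.07). The other 3 that rose, named after their values were seen, were the protease Ctss (0.32), the membrane protein Lamp1 (0.23) and the protease Ctsl (0.19), and Ctsl was at -0.082 when its probe sets were averaged. Neu1 and Glb1, the sialidase and the galactosidase held in the complex with cathepsin A, differed by 0.11 and 0.00 and were not called. In cerebellar vessels limma called 0 of the 14, with a median of 0.07 and 3 at an unadjusted p under 0.05. The cerebral count of 6 rested on single arrays. Leaving out 1 cerebral array gave a count of 2 for control 1, 1 for control 2, 1 for knockout 1 and 0 for knockout 3, and a fit on the 6 cerebral arrays alone gave 0. Of the 6 genes, 5 were in the promoter table. Ctsd, Ctsl and Lamp1 held CACGTG in their start windows and Ctss and Hexa did not, against 6.79% of all windows. The windows of the 8 genes not called were not compared, so the motif cannot be set against the rise.

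**Figure D3:**
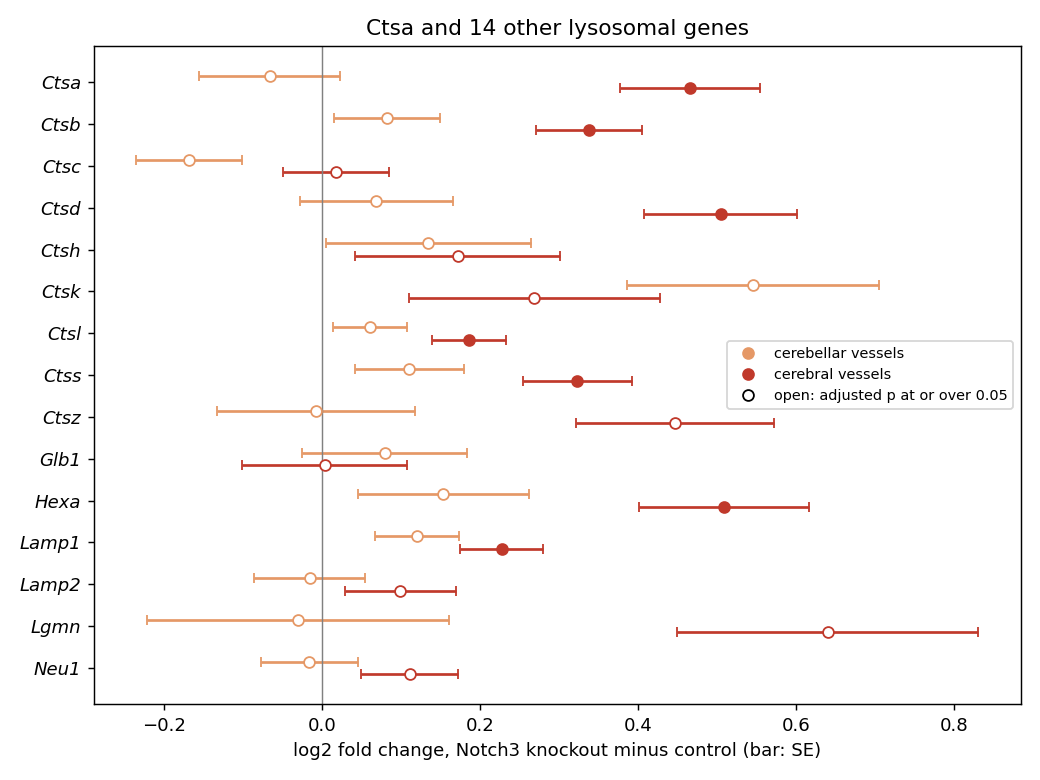
Log2 fold change of Ctsa and 14 other lysosomal genes, knockout minus control, in cerebellar and in cerebral vessels (bars: SE); filled points have an adjusted p under 0.05. Ctsa and 6 others are filled in cerebral vessels, and none is filled in cerebellar vessels.

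Microglia markers were also higher in knockout cerebral vessels, and many lysosomal genes and Cst3 are well expressed by microglia, the immune cells of brain tissue. The summed level of 8 microglia markers ranged from 16.41 to 16.88 log2 in knockout cerebral vessels and from 15.78 to 16.25 in control cerebral vessels, with no overlap. In cerebellar vessels it ranged from 15.85 to 15.94 in knockout mice and from 15.57 to 15.85 in controls. In cerebral vessels 3 of the 8 were called higher, Tmem119 (1.16), Trem2 (1.13) and C1qa (1.01), and 0 were called lower. Of all genes, 2.45% were called higher there. The count of 3 ranged from 0 to 6 over the alternatives. In cerebellar vessels limma called 0 of 8, and 1 had an unadjusted p under 0.05. The array with the highest microglia sum, knockout cerebral replicate 1 at 16.88, also had the highest Ctsa value, and the 3 knockout cerebral arrays kept the same order in both measures. The part of these markers in the values of Ctsa, Cst3 and the lysosomal genes was not tested. Trem2, a microglial receptor that binds clusterin, was also the single gene called in cerebral vessels of 8 tested receptors and partners of vitronectin and clusterin, of which limma called 0 in cerebellar vessels (1 at an unadjusted p under 0.05).

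**Figure D4:**
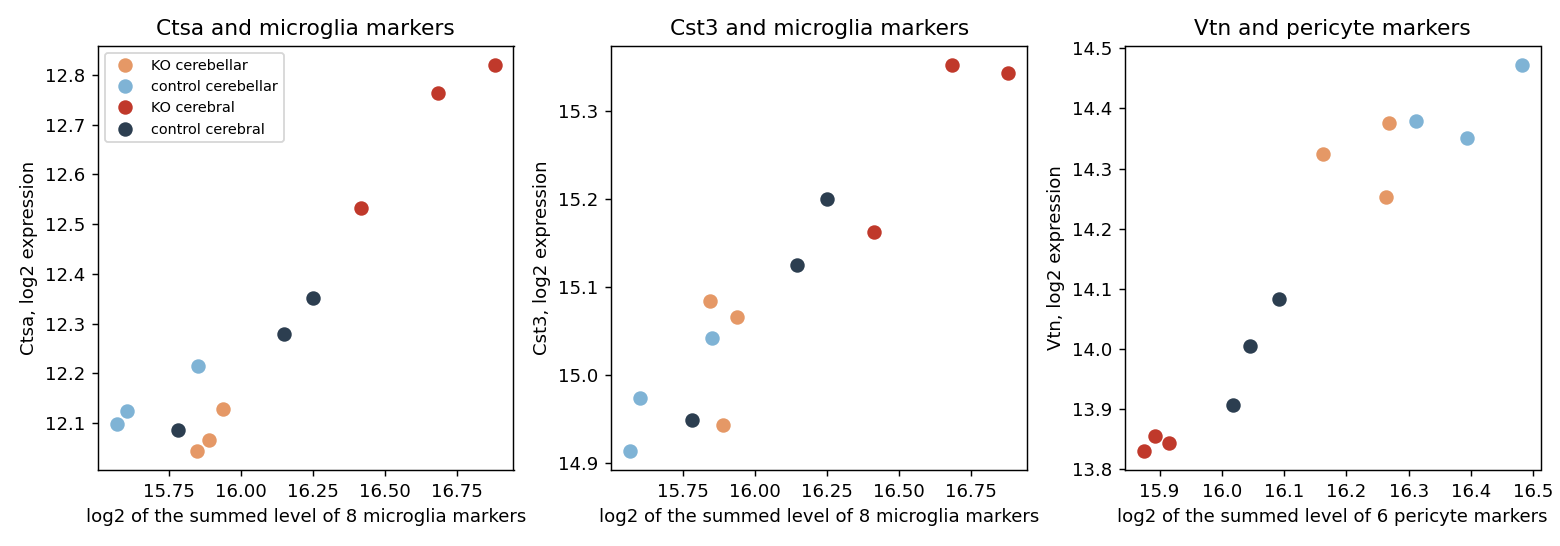
Log2 level of Ctsa, of Cst3 and of Vtn on each of the 12 arrays against the log2 of the summed level of 8 microglia markers (left and middle) or of 6 pericyte markers other than Vtn (right); colours give the 4 groups. The 3 knockout cerebral arrays lie at the high end of the microglia axis, from 16.41 to 16.88, and at the low end of the pericyte axis, from 15.87 to 15.91.

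The forkhead factors Foxc1 and Foxf2 lay lower in knockout vessels of both regions, and Foxc1 fell in cerebellar vessels. Foxc1 read 11.23, 10.83 and 10.87 in knockout cerebellar vessels, against 11.47, 11.44 and 11.51 in control cerebellar vessels. No value overlapped, and the difference was -0.50 (SE 0.12, 95% interval -0.76 to -0.23, limma adjusted p = 0.0436), with knockout replicate 1 nearest to the controls. In cerebral vessels Foxc1 read 11.28, 10.98 and 11.13 in knockout mice, against 11.59, 11.42 and 11.29 in controls. The highest knockout array lay just below the lowest control array, and the difference of -0.30 (SE 0.12, adjusted p = 0.177) was not called. On the mean per mouse Foxc1 differed by -0.40 (SE 0.10, adjusted p = 0.0956). Its second probe set gave -0.28 in cerebellar and -0.33 in cerebral vessels, neither called. The cerebellar call of Foxc1 held under 12 of 25 alternatives, with a log2 change between -0.62 and -0.39 and an adjusted p between 0.0114 and 0.172. It was lost without any 1 of the 3 control cerebellar arrays (adjusted p from 0.105 to 0.116), without knockout cerebellar array 2 (0.127) or 3 (0.164), and also without the cerebral array of control mouse 2 (0.0644) or of knockout mouse 3 (0.0663).

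Foxf2, which in mice is needed for brain pericytes and the barrier, read 11.92, 11.86 and 11.58 in knockout cerebellar vessels, against 12.11, 11.95 and 12.02 in control cerebellar vessels. In cerebral vessels Foxf2 read 12.12, 12.01 and 11.80 in knockout mice, against 12.39, 12.38 and 12.16 in controls. Neither pair of groups overlapped, yet the differences of -0.24 (SE 0.11, adjusted p = 0.305) in cerebellar and -0.33 (SE 0.11, adjusted p = 0.122) in cerebral vessels were not called, nor was that of the mean per mouse (-0.29, SE 0.10, adjusted p = 0.189). A second Foxf2 probe set did not exceed the filter.

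Of 11 other forkhead genes tested, 3 fell and 0 rose in cerebellar vessels, and 2 fell and 0 rose in cerebral vessels. Of all genes, 3.17% fell in cerebellar and 3.93% in cerebral vessels. Foxs1, a factor of mural cells, fell by 1.99 (SE 0.26) in cerebellar and by 1.44 (SE 0.26) in cerebral vessels. Foxd1, a factor of mural precursors, fell by 0.78 (SE 0.10) in cerebellar and by 1.18 (SE 0.10) in cerebral vessels. The third gene called in cerebellar vessels was Foxc2, the close relative of Foxc1, whose probe set lay near the filter of 3.27. It read 3.03, 3.05 and 3.04 in knockout cerebellar vessels, against 3.74, 3.97 and 4.16 in control cerebellar vessels. All 6 knockout arrays lay below the filter, and the gene passed it only through 5 control arrays, so its call and its difference of -0.91 (SE 0.14) rest on a probe set that was below the filter in the knockouts. The cerebral count was 1 with the stricter filter, 5 with array weights and 4 without control cerebral replicate 2, and the cerebellar count was 1 with the stricter filter. Smooth muscle markers and some pericyte markers lay lower beside these genes. The summed level of 8 smooth muscle markers ranged from 15.48 to 15.64 in knockout and from 16.15 to 16.41 in control cerebellar vessels, and from 15.36 to 15.54 in knockout and from 16.00 to 16.22 in control cerebral vessels. In each region 6 of the 8 fell and none rose. The sum of 6 pericyte markers other than Vtn ranged from 16.16 to 16.27 in knockout and from 16.31 to 16.48 in control cerebellar vessels, and from 15.87 to 15.91 in knockout and from 16.02 to 16.09 in control cerebral vessels. Of these 6 pericyte markers, 2 fell in cerebellar and 3 in cerebral vessels, and none rose. The cerebellar count was 1 under several alternatives. Kcnj8, Abcc9 and Rgs5 were not called in either region. The pericyte marker Anpep was not among the tested genes. The part of these markers in the values of Foxc1 and Foxf2 was not tested.

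None of the 4 genes of secreted deposit proteins was called for the knockout in either region. Vtn, which pericytes of the mouse brain make and which is a member of the pericyte list, read 14.38, 14.25 and 14.32 in knockout cerebellar vessels, against 14.38, 14.47 and 14.35 in control cerebellar vessels. In cerebral vessels Vtn read 13.86, 13.84 and 13.83 in knockout mice, against 14.00, 14.08 and 13.91 in controls. The cerebral groups did not overlap and the cerebellar groups did, with differences of -0.08 (adjusted p = 0.569) in cerebellar and -0.15 (SE 0.06, adjusted p = 0.183) in cerebral vessels. Its second probe set gave -0.07 in cerebellar and -0.20 in cerebral vessels.

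Timp3 leaned the other way without passing the test. It read 12.64, 12.77 and 12.67 in knockout cerebellar vessels, against 12.62, 12.61 and 12.36 in control cerebellar vessels. It read 12.40, 12.73 and 12.60 in knockout cerebral vessels, against 12.42, 12.48 and 12.24 in control cerebral vessels. The cerebellar groups did not overlap, by a small margin, and the cerebral groups did, with differences of 0.17 (SE 0.10, adjusted p = 0.477) in cerebellar and 0.20 (SE 0.10, adjusted p = 0.324) in cerebral vessels. All 4 probe sets of Timp3 were on the positive side in both regions, between 0.17 and 0.35, and none was called. The probe sets share the same 12 arrays and are not separate samples.

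Htra1 had the widest spread of the 9 genes. It read 13.14, 12.51 and 13.09 in knockout cerebellar vessels and 12.75, 12.74 and 12.99 in control cerebellar vessels. In cerebral vessels it read 13.00, 12.69 and 13.05 in knockout mice and 12.67, 12.89 and 12.95 in controls. Knockout mouse 2 was the lowest knockout in both regions, the groups overlapped, and the differences of 0.09 (95% interval -0.28 to 0.47) in cerebellar and 0.08 (95% interval -0.29 to 0.45) in cerebral vessels were not called. Knockout mouse 2 was also the knockout mouse without Xist, whereas the control mouse without Xist, mouse 3, was the highest control in both regions (12.99 and 12.95). A second Htra1 probe set gave 0.03 in cerebellar and 0.01 in cerebral vessels. Clu averaged 15.48 ± 0.10 in knockout and 15.40 ± 0.13 in control cerebellar vessels, and 15.29 ± 0.08 in knockout and 15.23 ± 0.12 in control cerebral vessels (SD, n = 3 each). Its differences were 0.08 (95% interval -0.12 to 0.28) in cerebellar and 0.05 (95% interval -0.15 to 0.25) in cerebral vessels, and its 4 probe sets ranged from 0.05 to 0.16, none called.

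Few of the genes whose products act with these passed the test. Of 15 other deposit proteins and HTRA1 substrates, limma called 0 in either region, and 2 in cerebellar and 1 in cerebral vessels had an unadjusted p under 0.05. The smallest p of the 15 in each region was that of Ltbp1, a latent TGF-beta binding protein cut by HTRA1, at -0.76 (SE 0.19, adjusted p = 0.0599) in cerebellar and -0.73 (SE 0.19, adjusted p = 0.0555) in cerebral vessels. In each region 4 alternatives gave a count of 1 in place of 0, among them leaving out control cerebellar array 1 in either region, control cerebral array 2 in cerebellar and knockout cerebral array 2 in cerebral vessels. Of the 3 HtrA relatives, limma called 0 in either region, and 0 had an unadjusted p under 0.05. Of 10 tissue inhibitors and metalloproteinases, Timp2, a relative of Timp3, fell by 0.58 (SE 0.10, adjusted p = 0.0108) in cerebellar vessels, while in cerebral vessels limma called 0 and 2 had an unadjusted p under 0.05. Of 13 other genes of inherited small vessel disease, 1 was called in each region. This was Gsn, the actin-severing protein gelsolin, an amyloid protein in humans, which fell by 0.72 (SE 0.14) in cerebellar and by 0.76 (SE 0.14) in cerebral vessels. Of 13 genes of amyloid precursor processing, limma called 0 in cerebellar vessels, where 2 had an unadjusted p under 0.05, and 1 in cerebral vessels, Bace1, the beta-secretase, which fell by 0.41 (SE 0.09, adjusted p = 0.0259).

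Trex1 could not be separated from Atrip, a checkpoint gene that shares its probe set. The shared probe set read 8.52, 8.15 and 8.35 in knockout cerebellar vessels, against 8.24, 8.07 and 8.30 in control cerebellar vessels. It read 8.01, 8.19 and 8.26 in knockout cerebral vessels, against 8.35, 8.09 and 8.74 in control cerebral vessels. Both pairs of groups overlapped, and no test was made on it. Of 12 other genes of nucleic acid clearance and sensing, limma called 0 in either region, and 1 in cerebellar and 3 in cerebral vessels had an unadjusted p under 0.05.

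The cerebellar and cerebral vessels of the same mice were then compared, knockouts and controls together. On the difference between regions within each of the 6 mice, 5 of 9 genes were called, against 21.3% of all tested genes (11.6% higher and 9.68% lower in cerebellar vessels). The cerebellar level was higher for Vtn and Clu and lower for Ctsa, Foxf2 and Cst3. The sign was the same in all 6 mice for 5 genes, against 25.1% of all genes. These were Vtn, Clu and Timp3, higher in the cerebellum, and Foxf2 and Cst3, lower there.

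**Figure D5:**
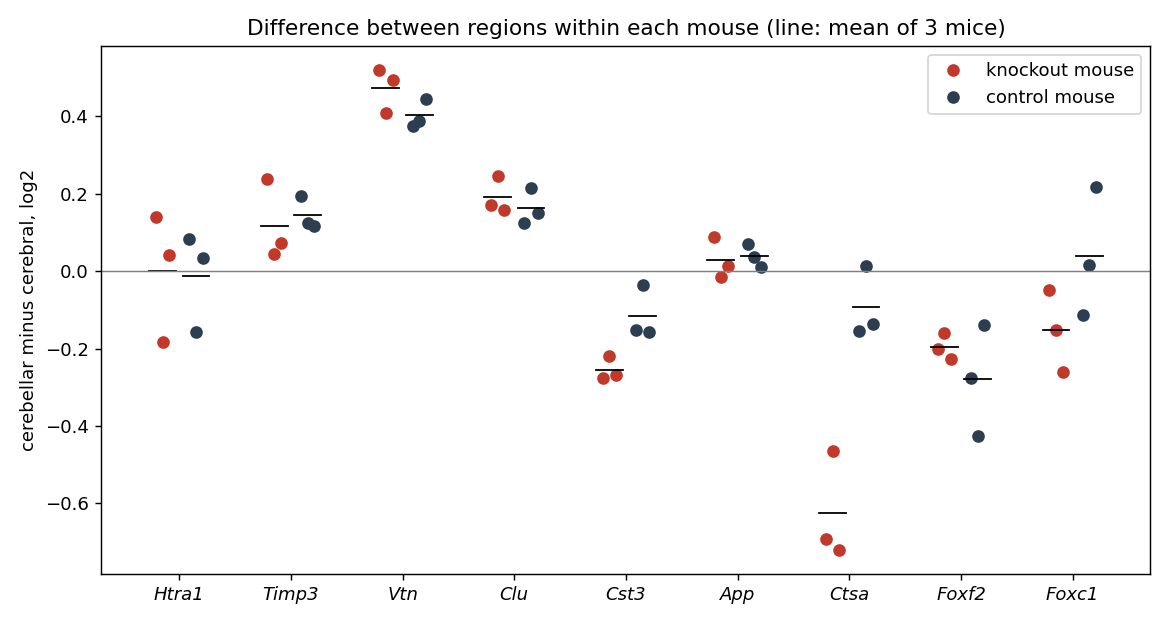
Cerebellar minus cerebral log2 expression of the 9 genes within each mouse, for 3 knockout and 3 control mice (points: mice, lines: means of 3 mice). Vtn lies between 0.37 and 0.52 in all 6 mice, and Ctsa lies between -0.72 and -0.47 in knockout mice and between -0.15 and 0.01 in control mice.

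Vtn showed the clearest regional difference. It was higher in cerebellar vessels by 0.52, 0.41 and 0.49 in the knockout mice and by 0.37, 0.39 and 0.44 in the control mice, a mean of 0.44 over the 6 mice (SE 0.04, limma adjusted p = 0.0005). It was called within knockout mice (0.47, SE 0.06, adjusted p = 0.0023) and within control mice (0.40, SE 0.06, adjusted p = 0.00997). In control mice the call was lost without control cerebellar replicate 2 (0.37, adjusted p = 0.0534). The second Vtn probe set gave 0.58 over the 6 mice and was called. Pericyte markers moved with it. Of 7 tested pericyte markers 6 were higher in cerebellar vessels and 0 lower, against 11.6% of all genes higher. Vtn is itself among those counted as higher, so that count is not separate from it. The sum of the 6 markers other than Vtn ranged from 16.16 to 16.48 in cerebellar and from 15.87 to 16.09 in cerebral vessels. Their part in the Vtn difference was not tested.

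Clu was higher in cerebellar vessels by 0.18 over the 6 mice (SE 0.04, adjusted p = 0.0157), with all 4 of its probe sets called, from 0.18 to 0.30. The call on Clu was lost without control mouse 2 (adjusted p = 0.0537) or knockout mouse 2 (0.0539). Clusterin is also made by astrocytes and by choroid plexus. Of all genes, 11.6% were called higher in cerebellar vessels and 9.68% lower. Of 7 choroid plexus markers 6 were higher and 0 lower, while of 7 tested astrocyte markers 4 were higher and 2 lower. Their part in the Clu difference was not tested. Timp3 was higher in the cerebellum of 6 of 6 mice by 0.13 (SE 0.04, adjusted p = 0.0669), which was not called. Its other 3 probe sets were mixed in sign over the mice, with means of -0.01, 0.06 and 0.08, and the one at -0.01 was nearly as bright as the one used (a mean of 12.53, against 12.55 for the probe set used).

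Ctsa was lower in cerebellar vessels by 0.36 over the 6 mice (SE 0.05, adjusted p = 0.0034). The differences were -0.69, -0.47 and -0.72 in knockout mice and -0.15, 0.01 and -0.14 in control mice. Ctsa was called within knockout mice (-0.63, SE 0.09, adjusted p = 0.0036) and not within controls (-0.09, SE 0.09, adjusted p = 0.694). Cst3 was lower in cerebellar vessels by 0.18 (SE 0.04, adjusted p = 0.0148), with -0.28, -0.22 and -0.27 in knockout mice and -0.15, -0.04 and -0.16 in control mice. Within knockout mice Cst3 differed by -0.25 with adjusted p = 0.0955, or 0.0213 with the mouse as a block. Over the 6 mice the call on Cst3 was lost without control mouse 1 (adjusted p = 0.0542) or knockout mouse 3 (0.0568). All 8 microglia markers were lower in cerebellar vessels, against 9.68% of all genes. Their sums ran from 15.57 to 15.94 in cerebellar and from 15.78 to 16.88 in cerebral vessels. Their part in the Ctsa and Cst3 differences was not tested. Of the 14 lysosomal genes, 4 were lower in cerebellar vessels, among them the protease Lgmn (-0.62, SE 0.09), and 2 were higher, among them Ctsk (0.40, SE 0.10). Of all genes, 9.68% were lower and 11.6% higher. The count of 6 lysosomal genes was 2 without control mouse 2 and 3 without control mouse 1, control mouse 3 or knockout mouse 3.

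Foxf2 was lower in cerebellar vessels by 0.24 over the 6 mice (SE 0.05, adjusted p = 0.0133), with -0.20, -0.16 and -0.23 in knockout mice and -0.27, -0.42 and -0.14 in control mice. The call on Foxf2 was lost without knockout mouse 3 (adjusted p = 0.0511). Its neighbour Foxc1 gave -0.05, -0.15 and -0.26 in knockout mice and -0.11, 0.02 and 0.22 in control mice, and was not called (-0.06, adjusted p = 0.512), while its second probe set gave 0.14. Htra1 (-0.01, 95% interval -0.14 to 0.13) and App (0.03, 95% interval -0.05 to 0.12) were not called either.

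Within control mice 1 of 9 genes was called between regions, Vtn, against 2.29% of all genes, and within knockout mice 2 of 9, Vtn and Ctsa, against 6.8% of all genes. Whether the knockout acted differently in the regions was tested directly as the difference between its effects, cerebellar minus cerebral. Of the 9 genes 0 were called by limma, 1 had an unadjusted p under 0.05, and 5 of all genes (0.0427%) were called. Ctsa was the 1, at -0.53 (SE 0.13, 95% interval -0.81 to -0.25, adjusted p = 0.849), rank 22 of all genes by p. Its adjusted p ranged from 0.129 to 1.0 over the alternatives, so the call of Ctsa in cerebral and not in cerebellar vessels is not shown to be a regional difference. The regional differences of knockout and control mice did not overlap for Ctsa and Cst3, 2 of 9 genes, against 15.8% of all genes. The interaction of Foxc1, called in cerebellar vessels alone, was -0.19 (SE 0.17, adjusted p = 0.999).

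The genes whose values over the 12 arrays were most like those of each measured gene were found by Pearson's r among all tested genes. The arrays share 6 mice and 4 groups, so r mixes region, genotype and mouse and is a description only. Cst3 was most like Sash3 (r = 0.988), an adaptor of leukocytes, and Itgb2 (0.983), the leukocyte integrin beta chain. Ctsa was most like Il17ra (0.984), an interleukin receptor chain. Vtn was most like Fat1 (0.980), a cadherin, and Ptprk (0.976), a receptor phosphatase. Htra1 was most like Col18a1 (0.952), a basement membrane collagen on the list of deposit proteins, and App was most like Slco1a4 (0.949), an organic anion carrier of brain endothelium, and Epas1 (0.927), a hypoxia-inducible factor. For Clu the first was Pmm1 (0.947), for Foxf2 Wdr82 (0.956), for Foxc1 Spty2d1 (0.933) and for Timp3 Dcbld2 (0.927).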

How the data were processed

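The authors deposited log2 values, 1 per probe set and array, from a whole-genome Affymetrix mouse array. They were made with GCRMA 2.32.0, per the submitters' processing notes, and were used unchanged. Biotinylated cRNA was amplified from a small RNA sample, per the labels' protocols. Probe sets were named from the platform annotation. Of 45101 probe sets, 34958 named 1 gene, 932 several and 9211 none. Probe sets above 3.27, the median of the whole table, on 3 or more of the 12 arrays were kept, and the brightest stood for its gene, which left 11716 genes. Of 23 probe sets annotated to 1 of the 10 genes alone, 20 passed.

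Two-sided moderated tests came from limma 3.58.1 (R 4.3.3), adjusted over all genes by Benjamini-Hochberg with a threshold of 0.05. Genotype, region and interaction contrasts came from 4 group means over 12 arrays. That fit had no term for the mouse, so it left out the pairing of the 2 regions. The knockout was also tested on the mean per mouse, and the region on the difference per mouse. Mice were the replicates, and their number limits the precision. Arrays of a genotype with the same number in their titles were taken as 1 mouse. The labels do not state this, but same-numbered arrays of the 2 regions of a genotype deviated together (r from 0.37 to 0.70 in 6 of 6 pairs). Marker sums are the log2 of summed unlogged values. Motifs were searched on both strands of RefSeq start windows. The fits were also run on simulated data with known changes. Those arrays were drawn independently, without deviations shared by a mouse, so the run does not check the fits on paired arrays.

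The 10 genes, the partner lists and the marker lists were chosen with earlier results of these data known, so none is independent evidence of a direction. Genes beyond the 10 were named by rule: up to 3 called genes with the largest change per list and comparison, and the 2 genes most like each measured gene. Names outside it, such as Neu1, Glb1 and Ltbp1, were chosen after their values were seen. Alternatives changed the filter, probe set choice, scaling, the variance model, array weights, the arrays fitted, blocks and leaving out each array or mouse. The fit on the 4 mice with Xist was added after the data were seen.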

Additional observations from a re-analysis of the deposited data

How the results depend on the processing

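Of 1422 recomputed values of single measured genes, 1386 kept their side of the threshold, 26 lost the call and 10 gained it. The sign turned in 46, and 0 of these were called either way. The number of the 9 genes called for the knockout in cerebellar vessels (1) was 0 with no filter, with averaged probe sets, with every probe set on its own, with quantile normalization, with only the 6 arrays compared and with the 4 mice with Xist, and 0 to 1 on leaving out an array. In cerebral vessels (1) it was 3 with array weights, 3 with the replicate number as a block, 0 with only the 6 arrays and 0 to 1 on leaving out an array. The added genes were Foxf2 (adjusted p = 0.0261) and Foxc1 (0.0356) with weights and Foxf2 (0.0243) and Cst3 (0.0426) with the block. On the mean per mouse (0) it was 0 to 1 on leaving out a mouse, the 1 being Foxc1 without knockout mouse 1 (adjusted p = 0.0404). Between regions of control mice (1) it was 2 with array weights, 0 with only the 6 arrays, 0 with the 4 mice with Xist and 0 to 1 on leaving out an array. On the difference per mouse (5) it was 3 with the 4 mice with Xist, and 3 to 5 on leaving out a mouse, lowest without knockout mouse 3. Ctsl in cerebral vessels (0.19) was at -0.082 with averaged probe sets. The cause of these changes was not tested, except that fits on fewer arrays or mice have fewer residual degrees of freedom.

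Whether same-numbered knockout and control mice belong together is not stated in the labels and was not tested. For same-numbered arrays of the genotypes, r between deviations was 0.26, 0.03 and -0.17 in cerebellar and 0.19, 0.18 and 0.01 in cerebral vessels. With the replicate number as a block Ctsa in cerebral vessels had limma adjusted p = 0.00495 and Foxc1 in cerebellar vessels 0.0129. The mouse as a block between regions added Cst3 in knockout mice and changed no other call on the 9 genes. Genes called among all 11716 ranged widely over the alternatives: 298 to 794 for the knockout in cerebellar vessels (495), 310 to 1415 in cerebral vessels (748), 238 to 765 per mouse (472), 322 to 1947 between regions of knockout mice (797), 62 to 1078 in control mice (268), 1616 to 3779 per mouse (2495) and 0 to 16 for the interaction (5).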

Other observations

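The genes listed with these were compared between regions on the difference per mouse, where 21.3% of all genes were called (11.6% higher and 9.68% lower in cerebellar vessels). Lists with a share near or below that, such as 2 of 13, 3 of 13 or 1 of 3, are no result about the list. Here 7 of 15 other deposit proteins and HTRA1 substrates were higher in cerebellar vessels and 0 were lower, led by Dcn, the proteoglycan decorin (1.30, SE 0.15), Efemp1, a fibulin (0.92, SE 0.11), and Fbln1, another fibulin (0.59, SE 0.10). Fibroblast markers, which include Dcn, moved with them: 4 of 6 were higher and 0 lower in cerebellar vessels, and their part in these values was not tested. Htra3, a relative of Htra1, was lower in cerebellar vessels (-0.87, SE 0.09), the single one called of 3 HtrA relatives. Timp4, a relative of Timp3, was higher (1.10, SE 0.13), with 4 of 10 inhibitors and metalloproteinases higher and 1 lower. Of 13 other genes of inherited small vessel disease, 2 were higher and 0 lower, Lamb1, a laminin chain of basement membranes (1.41, SE 0.06), and Gsn (0.61, SE 0.08).

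Among 8 receptors and partners of vitronectin and clusterin, 2 were higher and 3 lower in cerebellar vessels. Itgb8, the integrin chain that activates TGF-beta, was higher by 1.58 (SE 0.07), Lrp1, an endocytic receptor, by 0.55 (SE 0.09), and Trem2 was lower (-1.22, SE 0.11), as were all 8 microglia markers, of which it is one. Sorl1, a sorting receptor of the amyloid precursor protein, was higher by 1.32 (SE 0.14), with 3 of 13 processing genes higher and 0 lower. Among 12 nucleic acid genes Sting1, the adaptor of DNA sensing, was lower (-0.82, SE 0.12), and so was Cgas, the DNA sensor before it (-0.20, SE 0.05). Of 11 forkhead genes 2 were higher, Foxs1 (1.13, SE 0.07) and Foxd1 (0.56, SE 0.06), and 5 were lower, a total of 7 that ranged down to 2 with the 4 mice with Xist and to 3 on leaving out a mouse.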
